A study of Mus musculus with 18 samples.

Results

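The comparison was between nuclei of somatostatin-expressing (SOM+) neurons and unselected nuclei of the central amygdala (CeA), by promoter accessibility. Of the 18 libraries of the series, 4 belong to it: 2 of SOM+ nuclei from control mice and 2 of bulk nuclei from mice that the sample titles call WT, chosen by the labels alone. ATAC-seq was used, in which the transposase Tn5 inserts sequencing adapters where chromatin is open, and the deposited values are raw read counts in windows reaching 1 kb to each side of a transcription start site (mouse build mm9). All mice were C57BL/6J aged 2 to 3 months, and each library held 50000 sorted nuclei. The SOM+ control nuclei were gated on a nuclear GFP (SOMH2B-GFP in the protocol, genotype field WT, treatment field Control), with library 1 labelled male and library 2 female. The bulk WT nuclei were stained with the DNA dye NucBlue, as the protocol describes for the Erbb4 line, and were labelled female (library 1) and male (library 2). Their treatment field also reads Control, but their genotype field carries the knockout entry (Erbb4-KO in SOM+ cells), so that WT rests on the titles. A pair of other CeA groups served as a second comparison: SOM+ nuclei of fear-conditioned mice (genotype field WT, 2 libraries) and bulk nuclei of mice with Erbb4 deleted in SOM+ cells (KO in the titles, 3 libraries). The corresponding control and WT groups of prefrontal cortex (2 libraries each) were used for the region difference.

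Cell selection, mouse line, nuclear stain and sort differed together between SOM+ and bulk nuclei, and which of them a difference belongs to cannot be told apart. The protocol speaks of technical replicates at the sort, so p-values measure only the spread between these libraries, which may be technical. Bulk nuclei also contain SOM+ nuclei, and a lower count in a bulk promoter can mean fewer nuclei with it open or less opening per nucleus.

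The CeA is the output nucleus of the amygdala for learned fear, and nearly all of its projection neurons are GABAergic and related by origin to striatal neurons. Its SOM+ neurons are one of its main classes and overlap with cells that make other peptides, among them dynorphin. Cortical SOM+ cells are instead local interneurons that come from the medial ganglionic eminence. An accessible promoter marks a gene that can be transcribed but is not a measure of its transcript, and many promoters of silent genes are open.

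The 20 zinc finger (Zfp) genes of a cluster on chromosome 13 whose promoters could be matched one to one to RefSeq lie in the 2 Mb bin with the highest median difference among strong promoters, and 4 of their promoters are shown because most of the cluster shares an element. The element, GGGANATGTAGT, is the word of 12 letters with 1 free base that occurred in most of the 20 promoters, on either strand of the 300 bases from 250 before to 50 after the start. The same word shifted by 1 base was in as many promoters, and the first in the alphabet was taken. It was searched for after the values were seen. By construction it was frequent there, in 15 of the 20, and it was in 20 of 219 Zfp promoters elsewhere (9.13%) and in 155 of all 14655 matched promoters (1.06%). A match is a description of letters, not of a bound site. The 250 bases before the start are printed (RefSeq, GRCm38.p6) with the element in capitals, for Zfp458 at chr13:67268995-67269244 (minus strand), Zfp759 at chr13:67127978-67128227 (plus strand) and Zfp455 at chr13:67194256-67194505 (plus strand). Zfp748, at chr13:67553153-67553402 (minus strand), holds no match in this stretch and is shown for contrast.
Zfp458: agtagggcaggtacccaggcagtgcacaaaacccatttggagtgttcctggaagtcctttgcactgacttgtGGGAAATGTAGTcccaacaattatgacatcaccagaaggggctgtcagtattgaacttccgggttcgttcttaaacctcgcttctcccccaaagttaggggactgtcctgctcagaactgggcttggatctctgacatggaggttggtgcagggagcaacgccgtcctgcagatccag
Zfp759: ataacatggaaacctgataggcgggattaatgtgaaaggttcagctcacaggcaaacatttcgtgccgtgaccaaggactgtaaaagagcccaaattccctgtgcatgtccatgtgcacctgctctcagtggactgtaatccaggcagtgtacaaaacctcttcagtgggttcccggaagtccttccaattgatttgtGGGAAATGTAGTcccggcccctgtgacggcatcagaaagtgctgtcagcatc
Zfp455: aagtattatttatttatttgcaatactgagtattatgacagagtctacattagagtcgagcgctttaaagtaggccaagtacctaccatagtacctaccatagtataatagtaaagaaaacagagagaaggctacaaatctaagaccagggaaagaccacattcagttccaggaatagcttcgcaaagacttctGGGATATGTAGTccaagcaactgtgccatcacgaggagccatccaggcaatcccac
Zfp748: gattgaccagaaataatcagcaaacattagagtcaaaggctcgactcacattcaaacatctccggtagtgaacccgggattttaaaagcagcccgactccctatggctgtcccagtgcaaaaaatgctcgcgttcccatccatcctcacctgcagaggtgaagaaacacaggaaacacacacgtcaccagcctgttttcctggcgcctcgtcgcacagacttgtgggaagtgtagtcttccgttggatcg
Among the 20 promoters the longest identical run of a pair reached 45 bases, and 22 of 190 pairs shared at least 20. Reads from such stretches may be split between copies, so values of single genes of the cluster are uncertain to that extent.

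A pair of promoters from outside the cluster is shown for contrast. Gad1 (chr2:70561879-70562128 (plus strand)) makes a GABA-synthesizing enzyme. Klf3 (chr5:64803271-64803520 (plus strand)), which encodes a repressor of the Krüppel-like family, was among the promoters called lower in SOM+ nuclei with the smallest p. Capitals mark the GC box GGGCGG on either strand, of which this stretch of Gad1 holds 1 and that of Klf3 holds 6. A GC box was present in 35.7% of all promoters of the RefSeq table (300 bases each). Among promoters matched to tested windows it was in 55.5% of those higher by over 2-fold, 33.8% of those lower and 47.2% of others. With a mean of at least 30 CPM these shares were 60.3%, 63.3% and 71.9%. The pair was picked and does not stand for these sets.
Gad1: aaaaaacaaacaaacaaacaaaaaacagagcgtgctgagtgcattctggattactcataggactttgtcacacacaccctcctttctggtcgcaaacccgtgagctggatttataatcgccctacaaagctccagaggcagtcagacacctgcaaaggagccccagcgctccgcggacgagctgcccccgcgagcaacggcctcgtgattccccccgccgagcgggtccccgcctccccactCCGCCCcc
Klf3: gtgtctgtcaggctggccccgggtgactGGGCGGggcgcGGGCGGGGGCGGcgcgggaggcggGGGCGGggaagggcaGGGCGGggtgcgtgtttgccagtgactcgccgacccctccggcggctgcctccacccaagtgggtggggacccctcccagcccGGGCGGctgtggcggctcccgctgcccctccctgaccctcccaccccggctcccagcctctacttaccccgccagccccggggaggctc

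A microRNA cluster, Mir344 on chromosome 7, was singled out after its values were seen. The arms below come from hairpins whose windows were tested here, and the capitals mark the seed, bases 2 to 8 (RefSeq, GRCm38.p6).
mmu-miR-344-3p: uGAUCUAGccaaagccugacugu
mmu-miR-344c-3p: uGAUCUAGucaaagccugacagu
mmu-miR-344b-3p: cAUUUAGCcaaagccugacugu
mmu-miR-344d-3p: gAUAUAACcacugccagacuga
mmu-miR-344g-3p: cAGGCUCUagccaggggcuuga
mmu-miR-344-5p: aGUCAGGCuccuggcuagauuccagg
mmu-miR-344b-5p: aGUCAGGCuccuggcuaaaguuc
mmu-miR-344c-5p: aGUCAGGCugcuggcuagaguac
The 3p arms of miR-344 and miR-344c share the seed GAUCUAG, while those of miR-344b, miR-344d and miR-344g each have another. On the 5p side, miR-344, miR-344b and miR-344c share GUCAGGC. The libraries measure chromatin around the hairpins and carry no information on which arm is made.

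The 4 libraries held 7727263 and 3611038 promoter reads in SOM+ control and 5140434 and 2751769 in bulk WT. Replicates correlated at Pearson r = 0.966 (SOM+) and 0.951 (bulk) in log2 CPM (counts scaled to a common library size) across promoters, against 0.904 to 0.928 between groups. Counts on the Y chromosome went against 1 label: in bulk WT library 1, labelled female, Eif2s3y had 95 reads, Ddx3y 64 and Uty 84, where the female SOM+ control library had 0 reads at each. At these 3 genes bulk WT 1 stood at 10.5 to 15.6 CPM and bulk WT 2, labelled male, at 18.6 to 19.6 CPM, both below the 40.6 to 68.2 CPM of the male SOM+ control library. Whether nuclei of both sexes were pooled was not tested. The fit uses the labelled sex, and without that term 5339 promoters were called in place of 5866. The ratio of the median CPM at ribosomal protein promoters to that at olfactory receptor promoters, an index of signal over closed chromatin, was 23.9 and 33.6 in the SOM+ libraries and 10.3 and 15.2 in the bulk libraries. With 2 against 2 libraries no exact two-sided permutation test can go below 0.333. The index moved with the comparison. With vomeronasal receptor promoters as the closed set, and means, the groups overlapped, at 22.7 and 26.4 in SOM+ and 15.7 and 23.7 in bulk libraries. In the other CeA groups the olfactory ratio overlapped too, at 35.45 and 17.4 in SOM+ fear and 16.2 to 18.9 in bulk KO libraries. Its part in the differences below was not tested except through another scaling.

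Of 25246 promoters tested, 5866 were called, which is 23.2% of them (edgeR, adjusted p under 0.05, in a fit over all 18 libraries). SOM+ nuclei were higher at 3447 (13.7%) and lower at 2419 (9.58%). A difference of more than 2-fold was found at 969 of the higher and 1668 of the lower promoters. Without 1 library the count of calls was 3182 (SOM+ control 1 left out), 3083 (SOM+ control 2), 2321 (bulk WT 1) and 3263 (bulk WT 2). In 5854 of the 5866 calls the SOM+ and bulk libraries did not overlap in CPM, which also held for 62.4% of all promoters tested. The balance of directions depended on the scaling: 58.8% of calls were higher with TMM, 48.9% after cyclic loess, 40.7% by total count and 25.3% by upper quartile, while the median over all promoters was -0.06, 0.02, -0.22 and -0.35 on the log2 scale. It was 46.3% among promoters with a mean of at least 5 CPM.

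Direction followed promoter strength. Of 5 equal groups of promoters by mean level, the weakest reached up to 6.42 CPM, and there 8 were higher and 407 lower. In the strongest group, from 63.9 CPM, 1475 were higher and 279 lower. After cyclic loess, which centres the difference at each strength, the same 2 groups had 159 higher against 161 lower and 1058 against 1012. Of the calls, 2275 of the 3447 higher (66.0%) and 1660 of the 2419 lower (68.6%) were called in the same direction after cyclic loess.

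**Figure D1:**
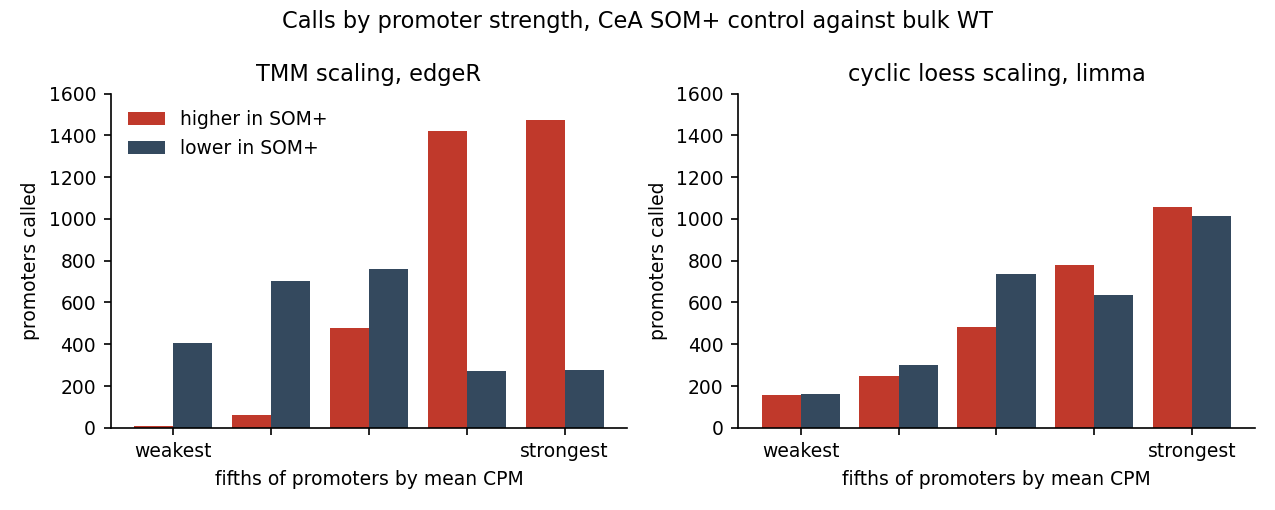
Number of promoters called higher (red) and lower (dark) in SOM+ control against bulk WT nuclei of the CeA (vertical axis), in 5 equal groups of promoters by mean CPM (horizontal axis), with TMM scaling on the left and cyclic loess on the right. With TMM the strongest group holds 1475 higher and 279 lower calls, and with cyclic loess 1058 and 1012.

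Of the GABA neuron markers, Gad1 and Slc32a1 were called higher in SOM+ nuclei with TMM scaling but not after cyclic loess. Gad1 (chr2:70399186-70401185) stood at 96.2 and 81.9 CPM in SOM+ and at 47.3 and 56.0 CPM in bulk nuclei, a log2 difference of 0.80 ± 0.20 (SE, adjusted p = 0.00413). Slc32a1 (chr2:158435494-158437493), the vesicular GABA transporter, was at 94.3 and 92.1 against 59.8 and 52.1 CPM (0.73 ± 0.22, adjusted p = 0.0134). Both genes separated the groups without overlap, yet neither stood far from its surroundings: the median difference of the other strong promoters within 1 Mb was 0.57 for Gad1 and 0.48 for Slc32a1 (18 and 10 promoters). After cyclic loess the differences were 0.53 and 0.49, with adjusted p = 0.0633 and 0.121. The call of Gad1 was also lost without SOM+ control 1 or bulk WT 1, or with upper quartile scaling. That of Slc32a1 was lost without SOM+ control 1, SOM+ control 2 or bulk WT 2, or with total count or upper quartile scaling. Gad2, the second GABA-synthesizing enzyme, was at 0.26 (adjusted p = 0.382). After cyclic loess 0 of the 8 genes of GABA synthesis, release and uptake were higher and 2 lower (median -0.25). With TMM 2 were higher and 1 lower (median -0.04), against 13.7% higher and 9.58% lower over all promoters (median -0.06). The lower one was Slc6a11 (-0.80, adjusted p = 0.0315), a GABA transporter found mainly on astrocytes, whose call was lost without SOM+ control 2 or either bulk library.

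Of the opioid peptide markers, Pdyn was higher and Penk was not called. Pdyn (chr2:129523395-129526674), the gene of prodynorphin, stood at 59.5 and 62.8 CPM in SOM+ and 26.5 and 22.9 CPM in bulk nuclei, a log2 difference of 1.29 ± 0.22 (adjusted p = 5.25e-05) that was 1.16 after cyclic loess. Penk (chr4:4064593-4066592), the gene of proenkephalin, was at 49.4 and 39.6 against 63.6 and 65.0 CPM, lower without overlap but not called (-0.55 ± 0.24, adjusted p = 0.0958). It was called lower with total count or upper quartile scaling. Sst itself (chr16:23889931-23891930), which names the sorted cells, was at 26.4 and 11.6 CPM in SOM+ and 21.5 and 19.9 CPM in bulk nuclei, so that the SOM+ libraries lay on both sides of the bulk libraries (-0.10 ± 0.33, adjusted p = 0.854).

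**Figure D2:**
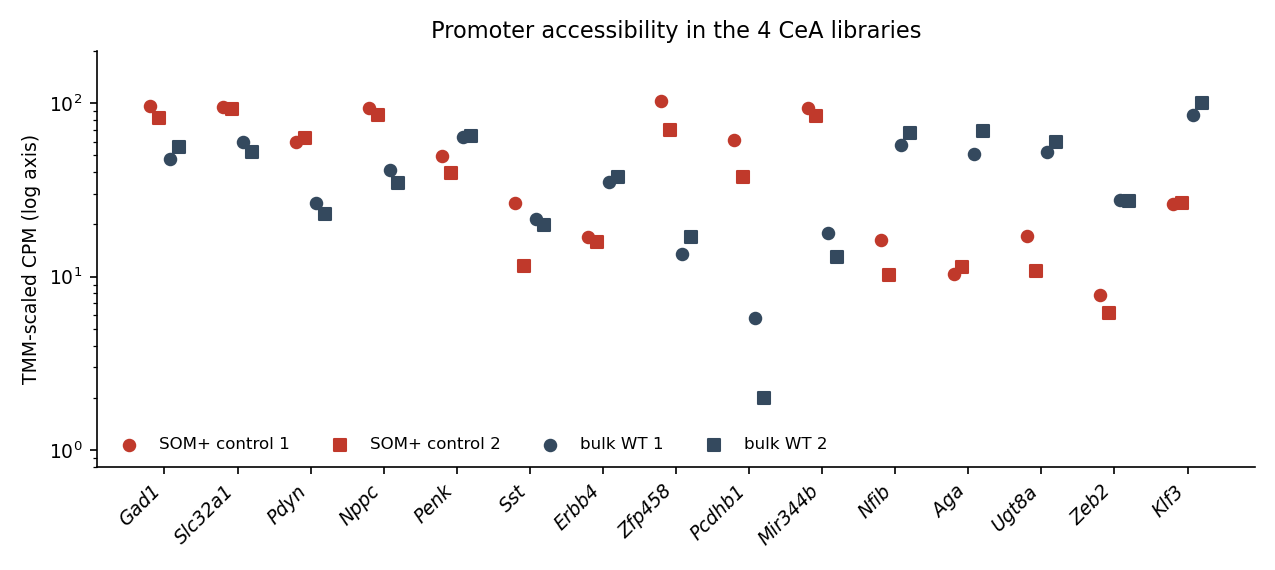
TMM-scaled CPM on a log axis for 15 promoters, with 1 point per CeA library (red SOM+ control, dark bulk WT, circles library 1, squares library 2). Pdyn lies at 59.5 and 62.8 CPM in SOM+ against 26.5 and 22.9 CPM in bulk nuclei, and Nfib the other way at 16.3 and 10.2 against 57.4 and 67.3 CPM.

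Among 20 peptide genes of the CeA, 2 were higher and 1 lower (median -0.21), shares no larger than the 13.7% and 9.58% over all promoters. Beside Pdyn the higher one was Nppc, which encodes C-type natriuretic peptide, at 93.5 and 85.7 against 41.3 and 34.8 CPM (1.22, adjusted p = 7.8e-05). The lower one was Grp, gastrin-releasing peptide (-1.53, adjusted p = 0.00134, lost without bulk WT 1). Crh, the stress peptide corticotropin-releasing hormone, was at -0.50 (adjusted p = 0.218), and Tac2 and Nts were not called at 0.37 and -0.50. In each of these 3 genes the value lay within 2 SE of 0.

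Several receptors that mark CeA cell classes were lower in SOM+ nuclei. Of 20 class markers 5 were lower and 1 higher (median -0.32). Of 39 peptide and monoamine receptors, which share members with that list, 12 were lower and 4 higher (median -0.48). Over all promoters 9.58% were lower and 13.7% higher, so neither list had a larger share of higher calls. Calcrl, part of the CGRP receptor, was at 11.6 and 8.08 CPM in SOM+ and 23.3 and 38.8 CPM in bulk nuclei (-1.63, adjusted p = 0.00033). Htr2a, a serotonin receptor, was at -1.21, Tacr1, the substance P receptor, at -1.03, and Oxtr, the oxytocin receptor, at -0.80. Adra1b, an adrenergic receptor, was lowest of the 39, at -1.73 (adjusted p = 2.4e-05), and the somatostatin receptors Sstr1 and Sstr4 were lower, at -1.07 and -0.87. Higher were Vipr1 (0.89, adjusted p = 0.00103), Oprl1, the nociceptin receptor (0.83), and Rgs9, a striatal regulator of G protein signalling (0.68, adjusted p = 0.0154). Prkcd, which marks another CeA class, was at -0.13 and not called. Without 1 library 4 to 8 of the receptors were called lower, and the call of Rgs9 was lost without any of the 4 libraries. Htr2a, Tacr1, Oxtr, Sstr1, Sstr4 and Oprl1 each lost their call without at least 1 library.

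Fate factors were called in both directions. Of 9 forebrain GABAergic factors, with a median of 0.28, 2 were higher and 1 lower, against 13.7% and 9.58% over all promoters. The higher ones were Dlx5 (0.68, adjusted p = 0.0142) and Dlx6 (0.65). Both calls were lost after cyclic loess, with upper quartile scaling and without SOM+ control 1 or bulk WT 2. That of Dlx5 was also lost without either of the other libraries. Of 19 striatal and amygdalar transcription factors 2 were lower, a share near the 9.58% over all promoters. These were Foxp2 (-1.37) and Ikzf1 (-1.80), and both kept their call without any single library. Meis2, Zfhx3 and Ebf1 were at -0.18, 0.17 and 0.08 and not called.

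Factors of the medial ganglionic eminence, the source of cortical SOM+ interneurons, were lower at 6 of 11 promoters in SOM+ nuclei and higher at 0 (median -0.78). The shares over all promoters were 9.58% lower and 13.7% higher. Zeb2 fell furthest, at 7.78 and 6.20 CPM in SOM+ against 27.4 and 27.2 CPM in bulk nuclei (-1.96, adjusted p = 1.37e-06). Satb1 was at -0.91, Lhx8 at -1.08 and Sox6 at -0.87. Lhx6, the factor most used to name these interneurons, was at 20.3 and 25.9 against 32.1 and 14.9 CPM and not called (-0.04). Without 1 library 2 to 3 of the 11 were called lower, and Satb1, Lhx8 and Sox6 each lost their call at least once. Of 19 markers of other interneuron classes 4 were lower, among them Ndnf (-1.46), Adarb2 (-1.46) and Id2 (-1.27), and none was higher.

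In 5 lists of markers of cells other than GABA neurons, the called members were lower in SOM+ nuclei with 1 exception. Shares over all promoters were 9.58% lower and 13.7% higher. Of 26 genes of glutamatergic and pallial neurons 9 were lower and 0 higher (median -0.54), of 20 astrocyte markers 10 and 0 (median -0.80), of 24 oligodendrocyte lineage markers 8 and 0 (median -0.64), of 22 microglia markers 4 and 1 (median -0.55), and of 30 vascular and meningeal markers 6 and 0 (median -0.58). The exception was the microglial Cd68 (0.79, adjusted p = 0.0465), a call lost under cyclic loess, DESeq2, total count scaling, without a sex term and without 3 of the 4 libraries. A list of 16 cilium and ependymal genes had 2 higher and 0 lower (median 0.04, and -0.03 to 0.14 without 1 library). Its share of higher calls was near the 13.7% over all promoters. Medians of the astrocyte and oligodendrocyte lists were -0.66 and -0.53 after cyclic loess, whereas those of the microglia and vascular lists were -0.04 and -0.26. Lists not chosen as cell type markers fell too, with 0 members higher. Lower were 23 of 106 keratin promoters (median -1.04), 94 of 1096 olfactory receptor promoters (-0.75) and 4 of 39 Hox promoters (-0.72). Their medians after cyclic loess were -0.46, -0.08 and -0.22. Of all 30 lists, 12 had a median above that of all promoters. Without 1 library the lower calls were 4 to 9 (astrocyte), 3 to 7 (oligodendrocyte), 5 to 7 (glutamatergic), 0 to 2 (microglia) and 1 to 2 (vascular).

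The largest differences of single markers in these 5 lists were at the oligodendrocyte genes Ermn and Ugt8a, while the lowest list median was that of the astrocyte markers. Ermn, a myelin cytoskeleton gene, was at 6.38 and 5.66 CPM in SOM+ and 22.5 and 30.5 CPM in bulk nuclei (-2.17, adjusted p = 6.8e-06), and Ugt8a, which makes the myelin lipid galactocerebroside, was at 17.1 and 10.8 against 51.9 and 59.7 CPM (-2.04). The groups did not overlap at either gene. Mbp, myelin basic protein, was not called at -0.03. Among astrocyte genes, Slc1a3, a glutamate transporter, was at -1.58, Gja1, connexin 43, at -1.60 and Sox9 at -1.28, while Gfap was at -0.17 and not called. Neurod1, a factor of glutamatergic neurons, was at -1.94, Rorb at -1.48 and Slc17a6, a vesicular glutamate transporter, at -1.09, and Slc17a7 was not called at -0.57. No marker of these 5 lists had 0 reads in any of the 4 libraries. Summed over the list, astrocyte markers held 324 and 302 CPM in SOM+ against 468 and 473 CPM in bulk nuclei, oligodendrocyte markers 350.1 and 332 against 552 and 529.8 CPM, and glutamatergic markers 524 and 478 against 604 and 644 CPM. Slc1a3 lost its call without SOM+ control 1, and Slc17a6 without any library but SOM+ control 2.

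Among the promoters called lower, those with the smallest p included Nfib, Aga, Tnc, Cnksr3, Klf3, Jam2, Zeb2, Cdh11 and Pla2g4a, at log2 differences from -2.90 (Pla2g4a) to -1.80 (Cdh11). Nfib (chr4:82150684-82152683), a nuclear factor I gene of glial and neuronal differentiation, was at 16.3 and 10.2 CPM in SOM+ and 57.4 and 67.3 CPM in bulk nuclei (-2.25 ± 0.23, adjusted p = 3.21e-08). Aga, a lysosomal enzyme gene, was at 10.3 and 11.3 against 50.6 and 69.0 CPM (-2.48), and Tnc, the matrix protein tenascin C, at 8.81 and 5.93 against 29.9 and 49.1 CPM (-2.40). Each of these 9 separated the groups without overlap, which the rule required, and each stayed called in the same direction under all 15 alternatives. Of the 9, only Klf3 had at least 5 strong promoters within 1 Mb, with a median of 0.17 against its own -1.81. In the list of nuclear factor I and glial progenitor factors 7 of 20 were lower and 0 higher (median -0.41), among them Nfia (-0.85), Fabp7 (-1.63), Hes1 (-1.52) and Sox2 (-0.93). Calls of Nfia and Sox2 were lost without bulk WT 1. Collagens and laminins had 20 lower and 0 higher of 55 (median -0.68). For both lists the share over all promoters was 9.58% lower.

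The 10 promoters called higher with the smallest p were Zfp458, Zfp759, Pcdhb1, Zfp763, Zfp748, Ipp, Ctsk, Zfp81, Gpbp1l1 and Ehd4, at 3.56 (Pcdhb1) to 1.69 (Ehd4). Zfp458 (chr13:67369005-67371004 in mm9) was at 103 and 69.5 CPM in SOM+ and 13.5 and 16.9 CPM in bulk nuclei (2.52 ± 0.25, adjusted p = 3.21e-08). Zfp759 was at 73.4 and 60.9 against 14.3 and 14.6 CPM (2.21), and Ctsk, which encodes the protease cathepsin K, at 63.7 and 63.3 against 14.0 and 18.9 CPM (1.98). These 10 also kept their call under all 15 alternatives. All of them had higher surroundings: the medians ran from 0.84 (Zfp763 and Zfp81) to 1.64 (Zfp458, Zfp759 and Zfp748).

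Zfp genes, most of which encode sequence-specific DNA-binding proteins, were higher at 160 of 353 promoters and lower at 13 (median 0.53), and at 141 and 25 after cyclic loess (median 0.38). Over all promoters 13.7% were higher and 9.58% lower. Other strong promoters around the Zfp genes were as high: their median was 0.56 at the 303 Zfp promoters with enough neighbours. The median of Zfp promoters minus their surroundings was 0.005. Without 1 library 111 to 127 were higher. In the chromosome 13 cluster whose promoters are printed above, 18 of 20 were called higher, and the 20 differences ran from 0.96 to 2.52. Of the printed promoters, Zfp455 was at 2.11 with the element and Zfp748 at 1.86 with the near match alone in that stretch. The cluster's median was 1.5 in the 15 promoters with the element and 1.72 in the 5 without it, an order that turned with another word that differs at 2 letters (1.66 in 14, 1.46 in 6). Among Zfp promoters elsewhere it was 1.25 with and 0.46 without the element, without regard to their surroundings. Among strong promoters of other genes (a mean of at least 30 CPM), the element was in 9 of 389 that were higher by over 2-fold (2.31%), in 0 of 78 that were lower by over 2-fold and in 91 of the 5864 remaining (1.55%). The element was picked on the cluster's promoters, so its share there is no result.

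The clustered protocadherins, cell surface proteins that give single neurons a molecular identity, were higher at all 58 promoters tested, from 0.82 (Pcdhgc3) to 3.56 (Pcdhb1), with a median of 1.77. The share over all promoters was 13.7% higher. Other strong promoters around them had a median of 0.81, and the median of the 58 minus their surroundings was 0.90. In the cortex 57 of the 58 were called higher in SOM+ nuclei (median 2.01). Pcdhb1 was at 61.4 and 37.4 CPM in SOM+ and 5.75 and 1.99 CPM in bulk nuclei. Pcdhb6 was at 2.87 and Pcdha4 at 2.19. All 58 were also called higher after cyclic loess (median 2.13), and 37 to 58 without 1 library. Their windows adjoin and resemble one another, so reads may be split between copies and the 58 are not independent. With the neighbouring promoters from Hars on they formed an unbroken run of 69 consecutive windows called higher on chromosome 18, the longest of the comparison.

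**Figure D3:**
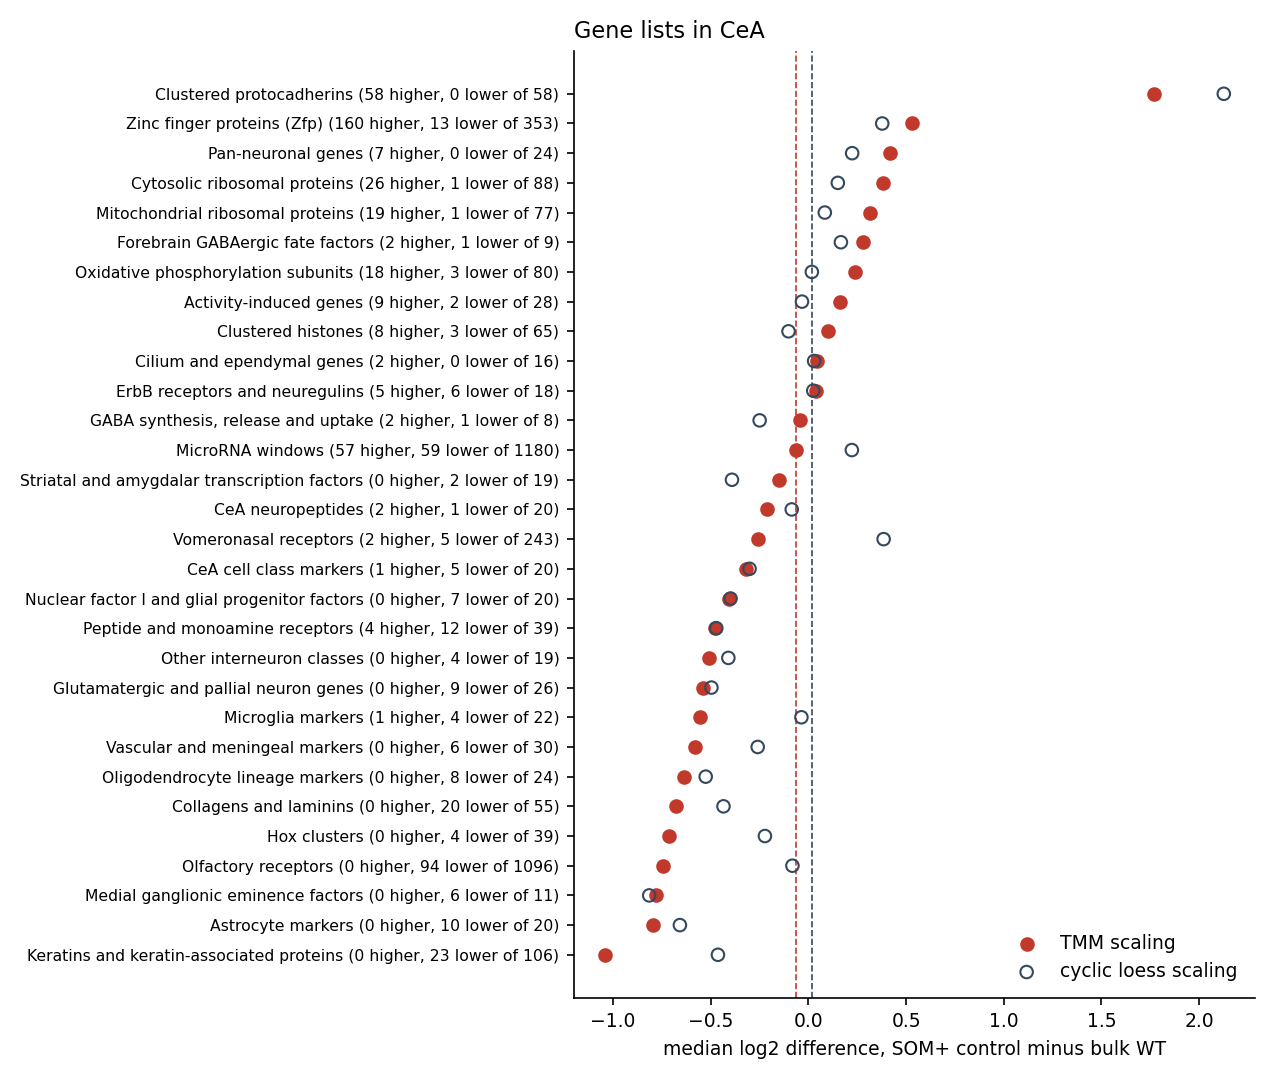
Median log2 difference of each gene list in CeA, SOM+ control minus bulk WT (horizontal axis), with TMM scaling (filled) and cyclic loess (open), and the medians of all promoters as dashed lines in the same colours. Counts of members called are beside each name, and clustered protocadherins stand at 1.77 and 2.13, far right of every other list.

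Of 24 pan-neuronal genes 7 were higher and 0 lower (median 0.42), against 13.7% higher and 9.58% lower over all promoters. Cytosolic ribosomal protein genes, which all cells use, had 26 of 88 higher (median 0.38) and mitochondrial ones 19 of 77 (median 0.32). After cyclic loess 5 pan-neuronal genes were higher and 1 lower, and by total count 4 and 1. The called genes were led by Stmn3 (1.18, adjusted p = 0.000225) and Elavl4 (1.13), with Nefh and Gap43 at 0.81 and 0.84. Rbfox3, which encodes the neuronal nuclear antigen NeuN, was not called at -0.29, nor was Snap25 at 0.32. Without 1 library 2 to 3 were called higher, and Gap43 lost its call without any of the 4. Of 28 activity-induced genes 9 were higher and 2 lower (median 0.16), against 5 and 5 after cyclic loess (median -0.03). Fosl2 was at 166 and 133 against 57.7 and 49.1 CPM (1.45, adjusted p = 6.75e-06), Npas4 at 1.17, Dusp1 at 0.88 and Fos at 0.54. Bdnf (-1.45) and Klf4 (-0.66) were the lower ones. The surrounding median was 1.11 at Fosl2 and 0.80 at Npas4, and Bdnf and Klf4 had too few strong neighbours for a value. Without 1 library 1 to 6 of the 28 were called higher, and Npas4, Dusp1, Fos, Bdnf and Klf4 each lost their call at least once.

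Erbb4, the neuregulin receptor that the series deleted in other mice, was lower in SOM+ control nuclei than in bulk WT nuclei, at 16.8 and 15.9 against 35.2 and 37.5 CPM (-1.15 ± 0.25, adjusted p = 0.000734). The ErbB ligands Ereg (-2.07), Areg (-1.73) and Btc (-1.42) and the receptor Egfr (-1.15) were lower as well, and the neuregulin gene Nrg2 was higher (1.08, adjusted p = 0.000164). Nrg3 was not called at 0.27. In all, 5 of the 18 genes of this list were higher and 6 lower, against 1 and 6 after cyclic loess. Among all promoters 13.7% were higher and 9.58% lower. Btc and Egfr lost their calls without SOM+ control 2 and without 1 of the bulk libraries.

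Differences ran in domains along the chromosomes. Among the 10624 promoters with a mean of at least 30 CPM, the log2 difference of a promoter correlated with that of its neighbour at r = 0.76 over 5 to 20 kb (1307 pairs), 0.77 over 50 to 100 kb (3755 pairs) and 0.64 over 500 to 1000 kb (7905 pairs). After cyclic loess the value over 50 to 100 kb was the same to 2 decimals. These correlations are descriptions, since neighbouring promoters share libraries, base composition and sometimes reads. Differences between replicates carried part of this pattern: for SOM+ control 1 minus 2 the value over 50 to 100 kb was 0.59 at a smaller spread (SD 0.30 against 0.52 on the log2 scale), and for bulk WT 1 minus 2 it was 0.12.

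In 523 bins of 2 Mb with at least 8 strong promoters, the bin medians ran from -0.87 to 1.64 with an SD of 0.38. The highest lay on chromosome 13 from 66000001 to 68000000, where all 29 strong promoters were higher, next on chromosome 4 from 116000001 to 118000000 (1.37, 34 of 35 higher), which holds Ipp and Gpbp1l1. The lowest lay on chromosome 3 from 144000001 to 146000000 (-0.87, 9 of 10 lower). Longest runs of consecutive windows called lower were 17 on chromosome 3 from 142057661 to 144384299, which spans Gbp2, Lmo4 and Pkn2, and 15 on chromosome 16 from 85172953 to 88508223, which spans App and Grik1. Whole chromosomes also differed: 24.1% of promoters were higher on chromosome 9 and 21.4% on chromosome 17, but 1.23% on chromosome 15. The 53 highest bins held a median of 42 tested promoters and the 53 lowest 18, so that gene density moved with the difference (r = 0.24 over the 523 bins). Its part in the pattern was not tested.

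**Figure D4:**
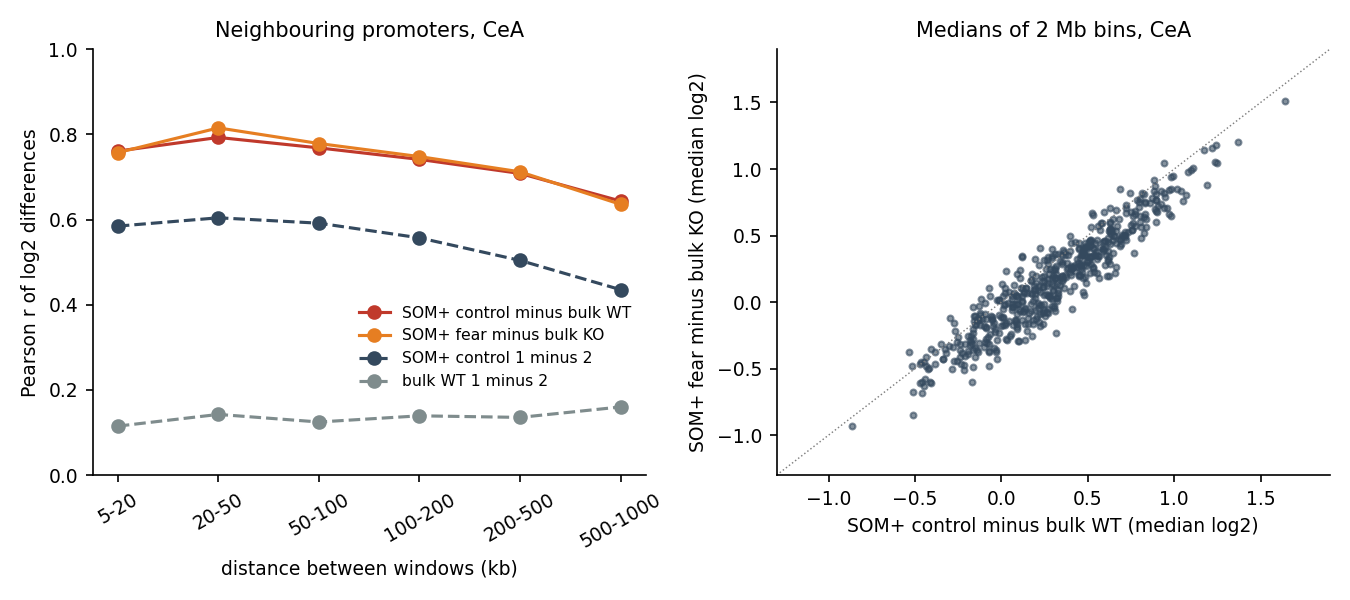
Left, Pearson r between the log2 differences of neighbouring strong promoters (vertical axis) by distance in kb (horizontal axis), for SOM+ minus bulk differences (solid) and for differences between replicates (dashed). Right, medians of 523 bins of 2 Mb in SOM+ control minus bulk WT (horizontal axis) and SOM+ fear minus bulk KO (vertical axis), with the line of equality dotted and r = 0.94.

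The comparison of SOM+ fear with bulk KO nuclei shares no library with that of SOM+ control and bulk WT nuclei, though it shares the fit and the sort protocol. It called 5098 promoters, 20.2% of those tested, of which 2935 were higher (11.6%) and 2163 lower (8.57%). Of the 3447 promoters higher in SOM+ control nuclei, 2181 (63.3%) were called higher here too, which is 74.3% of its 2935. Of the 2419 lower ones 1217 (50.3%) were called lower, which is 56.3% of its 2163, and no promoter was called in opposite directions. Bin medians correlated at r = 0.94 between the comparisons. The count rested on SOM+ fear library 1: without it 581 promoters were called, and the bin medians correlated at 0.89. Of the members above, Pdyn (0.81, adjusted p = 0.00353), Nppc (1.09), Nfib (-1.72) and Zfp458 (2.10) were called in the same direction, all 58 protocadherins were higher, and Penk was called lower (-0.79, adjusted p = 0.0165). Gad1 (0.40, adjusted p = 0.14), Slc32a1 (0.31) and Erbb4 (-0.60, adjusted p = 0.0631) were not called.

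The Mir344 cluster was more accessible in SOM+ nuclei of the CeA. Of 1180 microRNA windows tested 57 were higher and 59 lower, against 13.7% and 9.58% over all promoters. Of the 57, 8 were among the 13 windows named Mir344, which span 404 kb on chromosome 7 and had a median of 1.17. Mir344b (chr7:68934468-68936467) was at 93.7 and 84.0 CPM in SOM+ and 17.9 and 12.9 CPM in bulk nuclei (2.51 ± 0.25, adjusted p = 3.21e-08). Mir344 was at 84.7 and 82.7 against 26.3 and 23.5 CPM (1.74), Mir344-2 at 1.42, Mir344c at 1.36 and Mir344g at 1.30. So the hairpins of miR-344 and miR-344c, which share a 3p seed, and of miR-344b, which does not, lay in windows that were all higher. Next to them B230209E15Rik, a transcript without a known protein, was at 74.5 and 67.1 against 14.1 and 20.2 CPM (2.07). The other 5 windows of the 13 were not called, among them Mir344f at 0.38 and Mir344i at 0.64, nor was Ndn, the gene of necdin, at 0.32. Magel2, a MAGE family gene farther along, was called at 0.80 (adjusted p = 0.0215), a call lost without any of the 4 libraries and with total count or upper quartile scaling.

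In the cortex the 13 windows ran from -0.46 to 0.66 (median 0.34), and 1 was called, Mir344g, against 62.1% of all promoters. The difference between regions was called at 5 of the 13, all above the cortex, by 2.23 at Mir344b (adjusted p = 2.85e-05). It was also called at B230209E15Rik (1.61, adjusted p = 0.00147). Of all promoters 24.7% were called for it, 9.46% above the cortex. The comparison of SOM+ fear with bulk KO nuclei in the CeA called 9 of the 13 higher (median 1.08), against 11.6% of all promoters. Mir344b and Mir344 kept their call without any single library, and Mir344d-1 lost it without SOM+ control 1 or bulk WT 1. The cluster was chosen after its values were seen, among all microRNA windows.

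**Figure D5:**
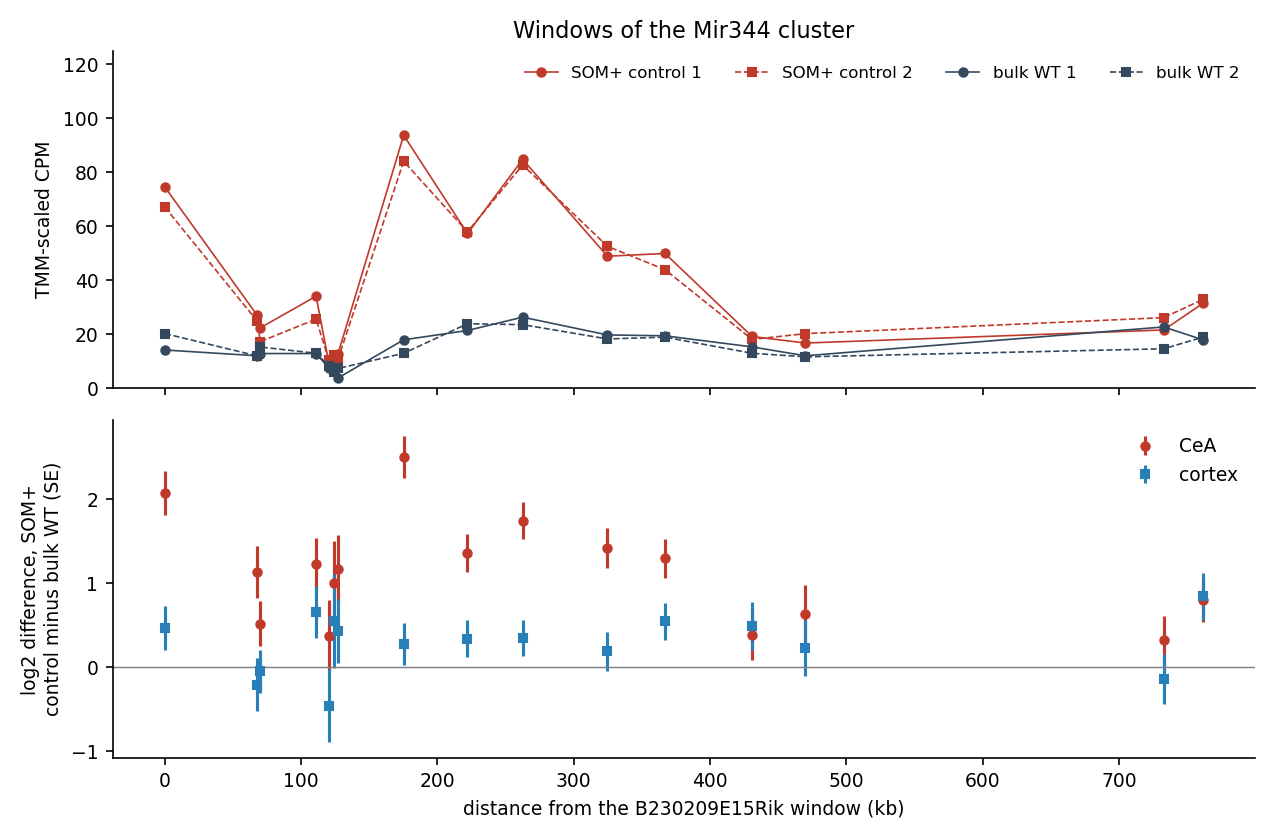
Above, TMM-scaled CPM of the windows of the Mir344 cluster and of B230209E15Rik, Ndn and Magel2 in each CeA library (vertical axis) by distance in kb from the B230209E15Rik window (horizontal axis). Below, the log2 difference of SOM+ control minus bulk WT with its SE in CeA (circles) and cortex (squares). Mir344b peaks at 2.51 in CeA beside 0.28 in the cortex.

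The same sort gave a broader difference in the cortex, where 15669 promoters were called (62.1%), 7954 higher (31.5%) and 7715 lower (30.6%). Signal and depth moved with region as well. The mean ribosomal to olfactory ratio was 64.9 in SOM+ control and 11.3 in bulk WT libraries of the cortex. In the CeA these means were 28.7 and 12.7. Promoter reads in the cortex were 10716940 and 10157955 in SOM+ control and 6072195 and 5146020 in bulk WT libraries. The part of signal or depth in the cortex and region differences was not tested except through another scaling. The difference between the regions was called at 6228 promoters (24.7%), 2389 (9.46%) with the CeA difference above that of the cortex and 3839 (15.2%) below it. Without 1 of the 8 libraries that count was 3944 to 4768, with bulk WT 2 of the CeA (4033) and SOM+ control 2 of the cortex (3944) moving it by more than 1.5 times. Of the promoters higher in CeA SOM+ nuclei 85.0% were also called higher in the cortex, and of the lower ones 82.5% were called lower. Gad1 was at 2.23 and Slc32a1 at 2.51 in the cortex. The CeA differences were smaller by 1.43 (adjusted p = 0.000499) and 1.78 (adjusted p = 0.000115) on the log2 scale.

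Genes with the clearest difference between regions were named by rule. Above the cortex were Ptprd (0.85 in CeA, -1.99 in cortex), Cacna2d1 (-0.22, -2.96), Pkp2 (0.91, -1.98), Zfhx4 (0.58, -2.31) and Slitrk2 (0.13, -2.24). Ptprd encodes a synaptic receptor phosphatase and Cacna2d1 a calcium channel subunit, and of these 5 only Ptprd and Pkp2 were called in the CeA, calls that were lost without SOM+ control 1 and without 1 of the bulk libraries. Below the cortex were Cort (-0.09 in CeA, 3.26 in cortex), Timp2 (-0.51, 2.51), Faap100 (-0.38, 2.45), Sept9 (-1.64, 1.74) and Lgals3bp (-0.12, 2.79). The rule took no account of surroundings. Timp2, Faap100, Sept9 and Lgals3bp lie on chromosome 11 in the stretch from 116000001 to 122000000. Medians of the bins there were 0.28, 0.24 and 0.29 in the CeA and 1.97, 2.24 and 2.10 in the cortex. The part of these surroundings in the values of single genes was not tested. Cort, the gene of cortistatin, a relative of somatostatin, was at 14.0 CPM in both SOM+ libraries of the CeA and at 15.8 and 13.9 CPM in bulk nuclei. Penk went the other way: it was lower in cortical SOM+ nuclei, at -2.29, against -0.55 in the CeA (difference 1.73, adjusted p = 0.000656). Pdyn was higher by 1.29 in the CeA and by 1.24 in the cortex, with a difference of 0.05 (adjusted p = 0.92). Lhx6, at -0.04 in the CeA, was at 2.50 in the cortex.

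Sequence features differed between the sets, and so did promoter strength. The median GC content was 57.0% in 546 promoters higher by over 2-fold, 51.3% in 987 lower by over 2-fold and 56.7% in 13122 others, and the ETS core CCGGAAG was in 21.4%, 4.36% and 12.1% of them. Their median levels were 56.6, 8.87 and 24.2 CPM. Among promoters with a mean of at least 30 CPM the GC medians were 58.0% (453 higher), 63.0% (79 lower) and 62.7% (5970 others), so the order turned, at median levels of 63.7, 46.9 and 62.3 CPM. The ETS core was in 21.6%, 7.59% and 20.9% of these. The TATA box TATAAA was in 5.86%, 19.9% and 13.5% of all matched promoters and in 5.96%, 5.06% and 6.06% of the strong ones. Each motif was searched on both strands of the same 300 bases, and no match says only that the letters are not in this window.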

How the data were processed

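The deposited values are raw counts of reads per promoter window in mm9, not normalized by the authors, per the file headers and the labels. Of tools, the submitters' processing notes name Trimmomatic 0.32, Picard 1.88, bcl2fastq 2.16.0.10, MACS2 and Bowtie2, with no order or role. How windows were counted, and whether reads were shifted for the Tn5 offset, is not given in the sources used here. Of 26728 entries 663 repeated a window and were left out, leaving 26065 windows that can overlap. Counts of all 18 libraries were fitted with edgeR 4.0.16 (R 4.3.3) by quasi-likelihood F tests on group and labelled sex (9 residual degrees of freedom), after TMM scaling and filterByExpr (minimum count 10, total 15). P values were adjusted by Benjamini-Hochberg over all promoters kept, and a promoter is called at an adjusted p under 0.05. A difference is a log2 fold change with its SE, and a level is TMM-scaled CPM. A count of 0 allows up to 0.388 and 0.831 CPM in the SOM+ control libraries and 0.584 and 1.09 CPM in the bulk WT libraries (3 counts, counting error only).

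Alternatives were DESeq2 1.42.0, limma 3.58.1 on cyclic loess values (prior count 2), total count and upper quartile scaling, other filters, fits on fewer libraries, no sex term, a replicate block and each library left out. Where that leaves 1 library in a group, it is assumed to vary like the other groups. A surrounding is the median difference of at least 5 other promoters of at least 30 CPM (strong promoters) with centres 5 kb to 1 Mb away, leaving out members of the same clustered family. Named by rule were, per direction, the 10 smallest p among calls over 2-fold with no overlap between groups, without predicted, receptor cluster and small RNA genes, and 5 per direction for the region difference. Results for a few of these and other listed genes are not reported here. Other members named from a list were chosen after their values were seen. The comparison and the gene lists were chosen with earlier results of these data known, so lists are given by counts and medians and no list was tested. The surroundings, bins, shared element and Mir344 cluster were added after seeing the data. The code was tested on simulated counts. RefSeq promoters matched 14655 windows, and 95.6% of gene names were in the reference table.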

Additional observations from a re-analysis of the deposited data

Results flagged for a closer look

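Groups of 2 or 3 libraries were not checked for a single deviating library. The difference between SOM+ control and bulk WT nuclei was tested against the same difference in the cortex by an interaction term in edgeR, and 6228 promoters passed. Signal over closed chromatin and read depth also differed between the regions, as given above, and their part was not tested except through another scaling. Differences are the CeA value minus the cortex value on the log2 scale. Among the promoters higher in CeA SOM+ nuclei it was larger in the CeA at Zfp458 (0.89), Pcdhb1 (1.80) and Ctsk (1.11). Pcdhb1 does not stand for its family: of the 58 clustered protocadherins 1 was called above the cortex and 2 below it. Their median was 1.77 in the CeA and 2.01 in the cortex. The difference was also larger in the CeA at Ptprd (2.84), Cacna2d1 (2.74), Pkp2 (2.89), Zfhx4 (2.88) and Slitrk2 (2.37), where the cortex value was negative, and at Penk (1.73). Smaller values in the CeA were found at Timp2 (-3.01), Cort (-3.35), Faap100 (-2.83), Sept9 (-3.38), Lgals3bp (-2.90), Gad1 (-1.43) and Slc32a1 (-1.78). In the Mir344 cluster the difference was larger in the CeA at B230209E15Rik (1.61), Mir344b (2.23), Mir344 (1.39), Mir344c (1.02), Mir344-2 (1.23) and Mir344d-1 (1.35).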

How the results depend on the processing

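The count of 5866 calls ranged from 5339 (no sex term) to 6783 (the 9 CeA libraries alone) over 11 alternatives that kept all 4 libraries, and from 2321 to 3263 with 1 of the 4 left out. For SOM+ fear against bulk KO it was 581 to 5094 with 1 library left out, and for the region difference 3944 to 4768. Same-numbered libraries correlated at 0.02 in their deviations in the CeA and at -0.00063 in the cortex, with 2 pairs, so the number was not taken as a pairing. With the replicate block beside sex 6366 promoters were called in the CeA, with the block in place of sex 5427, and for the region difference 6784 and 5811. For SOM+ fear against bulk KO it was 4778 with the block beside sex. Of 104 named promoters called in the CeA, 60 kept their call and direction under every alternative, 44 lost it without at least 1 library, 14 under cyclic loess and 12 under upper quartile scaling, and none changed direction. Of 30 gene lists, 12 had a median above that of all promoters, and 9 to 15 under the alternatives. The ribosomal to olfactory promoter ratio was higher by 15.98 in SOM+ than in bulk nuclei (11.1 to 20.8 with 1 library left out), and with vomeronasal in place of olfactory promoters, and means, by 4.89. The median GC content of promoters higher minus lower by over 2-fold was 5.67 percentage points, and -5.00 among strong promoters, an alternative added after seeing the data. Both sets there are smaller and stronger, and the cause was not tested. Promoter reads of 2751769 to 7727263 per library limit what can be seen at weak promoters, where calls were fewest.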
